A study of Brassica oleracea var. italica with 5 samples.

Results

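The nuclear genes of the light harvesting antenna and of the photosystem subunits were followed in broccoli, *Brassica oleracea* var. *italica*, through early sprout growth. They were chosen by name: a unigene (an assembled broccoli transcript) was taken where its best match in *Arabidopsis* was one of 42 loci of the *LHCB*, *LHCA*, *PSA* and *PSB* families. Of these loci 39 had a matched unigene, among 19441 unigenes in all: 13 of 14 *LHCB*, 5 of 6 *LHCA*, 11 of 12 *PSA* and 10 of 10 *PSB* loci. *LHCB1.2*, *LHCA6* and *PSAE2* were not analysed here.

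The tissues were the euphyllas (first true leaves) of 11 day sprouts, the seeds, and the cotyledons of 3, 7 and 11 day sprouts. All came from wild-type plants of the cultivar Qingxiu, and no treatment was compared. The seeds are labelled as germinated, at day 0. They had been shaken in NaClO, washed in sterile water and left on moist filter paper overnight. The sprouts grew in peat and vermiculite watered with Hoagland's solution. In ratios over seeds, tissue and this handling cannot be told apart. Each tissue was sequenced as 1 library that pooled 3 biological replicates, so there is no replicate error, no test and no p-value for any difference, and each ratio compares 1 library with another.

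Photosystem II splits water and photosystem I passes electrons on to ferredoxin. Each has a core of mostly plastid-encoded proteins, nuclear-encoded subunits around it (*PSB* for photosystem II, *PSA* for photosystem I), and an antenna of chlorophyll-binding proteins (*LHCB* for photosystem II, *LHCA* for photosystem I) that collects light. The nuclear genes are induced by light as a seedling greens, their proteins are imported into the plastid, and the *LHCB* transcripts are among the most abundant of a leaf.

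Mapped reads per library ranged between 6802615, in euphyllas, and 10312625, in 11 day cotyledons. Levels are given as normalized read counts, that is, reads divided by the DESeq size factor of the library. A single read was worth 1.16 in euphyllas, and 0.708, 1.02, 1.05 and 1.07 in seeds and in 3, 7 and 11 day cotyledons. Each fold has its exact 95% interval in parentheses (Clopper-Pearson, for the reads of the pair of libraries). It covers counting error only and treats reads as independent, which reads copied by PCR are not. In every library the mapped reads also exceeded the trimmed read pairs that the paper gives. Some fragments were thus counted more than once, and the intervals are too narrow even for counting error. To be called higher or lower, a gene needed a fold of 2 or more in that direction, an interval that left out 1, and 20 or more reads in the pair. Where one library had 0 reads, the absent count was set at 3 reads and the fold is given as a lower bound. The interval uses the counts as they are, so it can start below that fold. In whole tissue, fewer green cells and less RNA of these genes per cell cannot be told apart.

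Marker genes were read first as a check of the labels. The 11 unigenes found for 14 seed reserve and oil body genes summed to 4948 normalized counts in seeds, and to between 39.3 and 133 in the other 4 libraries. All 11 were called lower in 3 day cotyledons than in seeds, as were 22.5% of all unigenes tried. *CRC*, a cruciferin storage protein gene, had no read outside seeds. Of 9 young leaf genes 7 were called higher in euphyllas than in 11 day cotyledons, where 21.0% of all unigenes tried were called higher. They were led by the growth regulator *GRF5* at 191 in euphyllas and 2.14 in 11 day cotyledons. Seeds held reads of these genes as well, and the 9 summed to 2032 in seeds and 3277 in euphyllas. They differed among themselves, with *GRF5* at 176 and *AN3* at 241 in seeds, and *AN3* at 34.7 in euphyllas. *ANT* was at 5.66 in seeds and 355 in euphyllas. Of 4 seed coat genes 2 had a unigene, *AHA10* and *MUM4*, and these were read in every library, with a sum of 512 in euphyllas and 286 in seeds. Genes of the circadian clock also differed, in a comparison added after values were seen: the morning gene *LHY* stood at 0 in euphyllas and at 507, 7.12, 2690 and 76.1 in seeds and in 3, 7 and 11 day cotyledons. The evening gene *TOC1* stood at 990 in euphyllas, and at 221, 1167, 0 and 467 in seeds and in 3, 7 and 11 day cotyledons. The hour of harvest is not given in the sources used here, so the age or tissue of a library and its hour cannot be told apart.

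The 39 genes together took 7.79% of all mapped reads in euphyllas (exact binomial 95% interval, Clopper-Pearson, 7.77 to 7.81). The share was 0.123% in seeds (0.121 to 0.126). In cotyledons it was 3.25% at 3 days (3.24 to 3.26), 8.95% at 7 days (8.94 to 8.97) and 9.06% at 11 days (9.05 to 9.08). Among the 20 unigenes with the most reads of a library, 8 were of these families in euphyllas and none in seeds, and in cotyledons 1 was at 3 days, 6 at 7 days and 8 at 11 days. The division among families also differed. The *LHCB* antenna held 63.4% of the reads of the set in euphyllas, and 26.0% in seeds, 60.1% in 3 day, 59.5% in 7 day and 61.4% in 11 day cotyledons. The *PSA* subunits held 17.6% in euphyllas, and 40.3% in seeds, 19.4% in 3 day, 20.7% in 7 day and 18.8% in 11 day cotyledons. In seeds the largest single share, 27.9% of the reads of the set, lay on *PSAD1*, and in the other 4 libraries it lay on *LHCB1.4*, with between 28.7% and 36.8%.

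**Figure D1:**
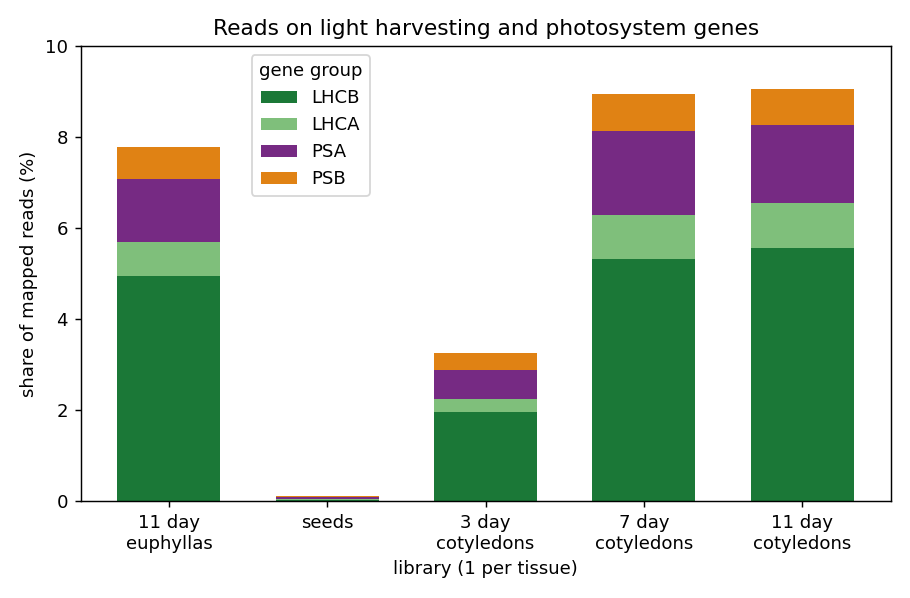
Share of mapped reads on the 39 genes, in percent (y axis, starting at 0), for each library (x axis), stacked by gene family; each bar is 1 library and there is no replicate error. The bar of 11 day euphyllas reaches 7.79%, that of seeds 0.123%, and those of 3, 7 and 11 day cotyledons 3.25%, 8.95% and 9.06%.

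*LHCB1*, *LHCB2* and *LHCB3* encode the trimers of the main antenna of photosystem II. The one with the most reads was *LHCB1.4* (AT2G34430, an *Arabidopsis* gene on chromosome 2 from 14524756 to 14525763), at 225505 normalized counts in euphyllas, and at 622 in seeds, 93907 in 3 day, 277547 in 7 day and 347469 in 11 day cotyledons. Its 324084 reads made up 3.14% of the whole 11 day cotyledon library. *LHCB1.3* (AT1G29930) had 32948 in euphyllas, and 236, 15071, 36444 and 40307 in seeds and in 3, 7 and 11 day cotyledons. Both stood lowest in seeds and highest in 11 day cotyledons.

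*LHCB2.1* (AT2G05100) followed the same order of libraries, with 26438 in euphyllas, and 190, 6152, 44976 and 45516 in seeds and in 3, 7 and 11 day cotyledons. *LHCB2.3* (AT3G27690) peaked earlier, with 20020 in euphyllas, and 23.4, 4454, 56541 and 40257 in seeds and in 3, 7 and 11 day cotyledons. *LHCB3* (AT5G54270), whose protein joins *LHCB1* proteins in the moderately bound trimers, was at 7454 in euphyllas, and at 21.2, 2033, 12465 and 22690 in seeds and in 3, 7 and 11 day cotyledons. It had the largest 11 over 7 day ratio of the set, 1.82-fold (1.78 to 1.86), which is under the 2-fold limit.

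The other trimer genes gave few reads. *LHCB1.1* (AT1G29920) was at 520 in euphyllas, and at 0, 360, 621 and 606 in seeds and in 3, 7 and 11 day cotyledons. *LHCB1.5* (AT2G34420) had 35 reads in euphyllas, and 0, 3, 32 and 14 in seeds and in 3, 7 and 11 day cotyledons. *LHCB2.2* (AT2G05070) had 12 reads in euphyllas, and 0, 0, 25 and 9 in seeds and in 3, 7 and 11 day cotyledons. Their unigenes are short, of 320, 320 and 310 bp, and near-identical copies of a family can share or split reads, so the division among copies is uncertain.

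*LHCB4*, *LHCB5* and *LHCB6* encode the single antenna proteins that join the trimers to the core of photosystem II. *LHCB5* (AT4G10340) had the most reads of them in 7 day cotyledons, with 24254 in euphyllas, and 316, 9760, 70852 and 48234 in seeds and in 3, 7 and 11 day cotyledons. *LHCB6* (AT1G15820) had 23990 in euphyllas, and 140, 10800, 28002 and 29477 in seeds and in 3, 7 and 11 day cotyledons. *LHCB4.1* (AT5G01530) had 21722 in euphyllas, and 113, 7482, 21697 and 25182 in seeds and in 3, 7 and 11 day cotyledons. The copies of *LHCB4* kept neither one order nor one direction. *LHCB4.3* (AT2G40100) stood at 5478 in euphyllas, and at 485, 5565, 26542 and 15311 in seeds and in 3, 7 and 11 day cotyledons. Per kb of unigene it was 0.235 times *LHCB4.1* in euphyllas (0.227 to 0.242), and 4.02 times in seeds (3.38 to 4.80), 0.693 in 3 day, 1.14 in 7 day and 0.566 in 11 day cotyledons. *LHCB4.2* (AT3G08940) was the one gene of the set that ran against the others, with 19 reads in euphyllas, and 34, 25, 5 and 2 reads in seeds and in 3, 7 and 11 day cotyledons.

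The antenna of photosystem I is a belt of *LHCA1* to *LHCA4* proteins. *LHCA3* (AT1G61520) was at 30689 in euphyllas, and at 584, 12733, 49290 and 50829 in seeds and in 3, 7 and 11 day cotyledons. *LHCA2* (AT3G61470) was at 19290 in euphyllas, and at 63.7, 6593, 33240 and 43366 in seeds and in 3, 7 and 11 day cotyledons. *LHCA1* (AT3G54890) was at 8647 in euphyllas, and at 236, 2610, 17280 and 13348 in seeds and in 3, 7 and 11 day cotyledons. These 3 were lowest in seeds and higher in both older cotyledon libraries than in euphyllas. *LHCA5* (AT1G45474), whose *Arabidopsis* protein is a minor one that helps link photosystem I to the NDH complex, had 936 in euphyllas, and 31.1, 907, 2335 and 1990 in seeds and in 3, 7 and 11 day cotyledons. Per kb of unigene it was 0.0505 times *LHCA2* in euphyllas, 0.509 times in seeds (0.346 to 0.737) and 0.0478 times in 11 day cotyledons. *LHCA4* (AT3G47470), a main belt protein, had only 245 reads in euphyllas, and 0, 44, 376 and 149 reads in seeds and in 3, 7 and 11 day cotyledons, on a unigene of 494 bp.

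Of the *PSA* subunits, *PSAD* and *PSAE* form the stromal face where ferredoxin docks. *PSAD1* (AT4G02770) had the highest level of the set in seeds, also per kb of unigene, with 17101 in euphyllas, and 2328, 8556, 31274 and 22946 in seeds and in 3, 7 and 11 day cotyledons. Its copy *PSAD2* (AT1G03130) had 8 reads in all, 4 of them in euphyllas. *PSAE1* (AT4G28750) had 4021 in euphyllas, and 587, 2626, 7051 and 6640 in seeds and in 3, 7 and 11 day cotyledons. *PSAF* (AT1G31330) and *PSAN* (AT5G64040) encode the lumenal side that takes electrons from plastocyanin. *PSAF* was at 6030 in euphyllas, and at 106, 2946, 9097 and 11237 in seeds and in 3, 7 and 11 day cotyledons. *PSAN* was at 5930 in euphyllas, and at 37.5, 2837, 14031 and 14052 in seeds and in 3, 7 and 11 day cotyledons.

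The remaining *PSA* genes encode small membrane subunits. *PSAG* (AT1G55670) and *PSAK* (AT1G30380) lie where the *LHCA* belt binds, and *PSAH*, *PSAL* (AT4G12800) and *PSAO* (AT1G08380) lie on the other side, where antenna trimers of photosystem II can dock. *PSAG* was at 25315 in euphyllas, and at 118, 11894, 39126 and 36469 in seeds and in 3, 7 and 11 day cotyledons. *PSAK* was at 17582 in euphyllas, and at 108, 5807, 37364 and 26904 in seeds and in 3, 7 and 11 day cotyledons. *PSAL* was at 12783 in euphyllas, and at 21.2, 5812, 27993 and 31594 in seeds and in 3, 7 and 11 day cotyledons. *PSAH2*, *PSAO* and *PSAL* had the least reads of these in seeds. *PSAO* had 7362 reads in euphyllas, and 15, 4669, 15507 and 17083 in seeds and in 3, 7 and 11 day cotyledons. *PSAH2* (AT1G52230) had 3256 reads in euphyllas, and 1, 1057, 6101 and 4891 in seeds and in 3, 7 and 11 day cotyledons. *PSAH1* (AT3G16140) had 6016 reads in euphyllas, and 70, 3873, 11393 and 14322 in seeds and in 3, 7 and 11 day cotyledons. Per kb of unigene *PSAH1* exceeded *PSAH2* in every library, by 2.13-fold in euphyllas, and by 80.6-fold in seeds (14.0 to 3228, on 70 reads and 1 read), 4.22-fold in 3 day, 2.15-fold in 7 day and 3.37-fold in 11 day cotyledons.

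The lumenal *PSBO*, *PSBP* and *PSBQ* proteins shield the manganese cluster at which photosystem II splits water. In the *PSBO* and *PSBQ* pairs 1 copy carried nearly all reads. *PSBO2* (AT3G50820) was at 7880 in euphyllas, and at 845, 6141, 16276 and 15167 in seeds and in 3, 7 and 11 day cotyledons, and *PSBO1* (AT5G66570), the main form in *Arabidopsis*, was at 318 in euphyllas, and at 12.7, 146, 947 and 524 in seeds and in 3, 7 and 11 day cotyledons. Per kb of unigene *PSBO1* was 0.0590 times *PSBO2* in euphyllas (0.0521 to 0.0666), 0.0221 times in seeds, and 0.0349, 0.0852 and 0.0506 times in 3, 7 and 11 day cotyledons. *PSBQ2* (AT4G05180) had the most reads of the *PSB* genes, at 23948 in euphyllas, and at 225, 10427, 32207 and 38263 in seeds and in 3, 7 and 11 day cotyledons. *PSBQ1* (AT4G21280) had between 3 reads, in seeds, and 19, in 11 day cotyledons, on a unigene of 219 bp. *PSBP1* (AT1G06680) had few reads as well, at 57.8 in euphyllas, and at 0, 35.6, 513 and 194 in seeds and in 3, 7 and 11 day cotyledons.

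*PSBS* (AT1G44575) encodes the sensor by which excess light is given off as heat. It was at 12409 in euphyllas, and at 241, 8093, 23671 and 16292 in seeds and in 3, 7 and 11 day cotyledons. The small membrane subunits *PSBW* (AT2G30570), *PSBX* (AT2G06520) and *PSBY* (AT1G67740) had 5736, 4280 and 1454 in euphyllas. In seeds they had 36.8, 65.8 and 471, and per kb of unigene *PSBY* was the highest of the 3 there and the lowest of them in the other 4 libraries. *PSBR* (AT1G79040), a subunit that helps hold *PSBP*, had 12 reads in all, 7 of them in euphyllas.

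**Figure D2:**
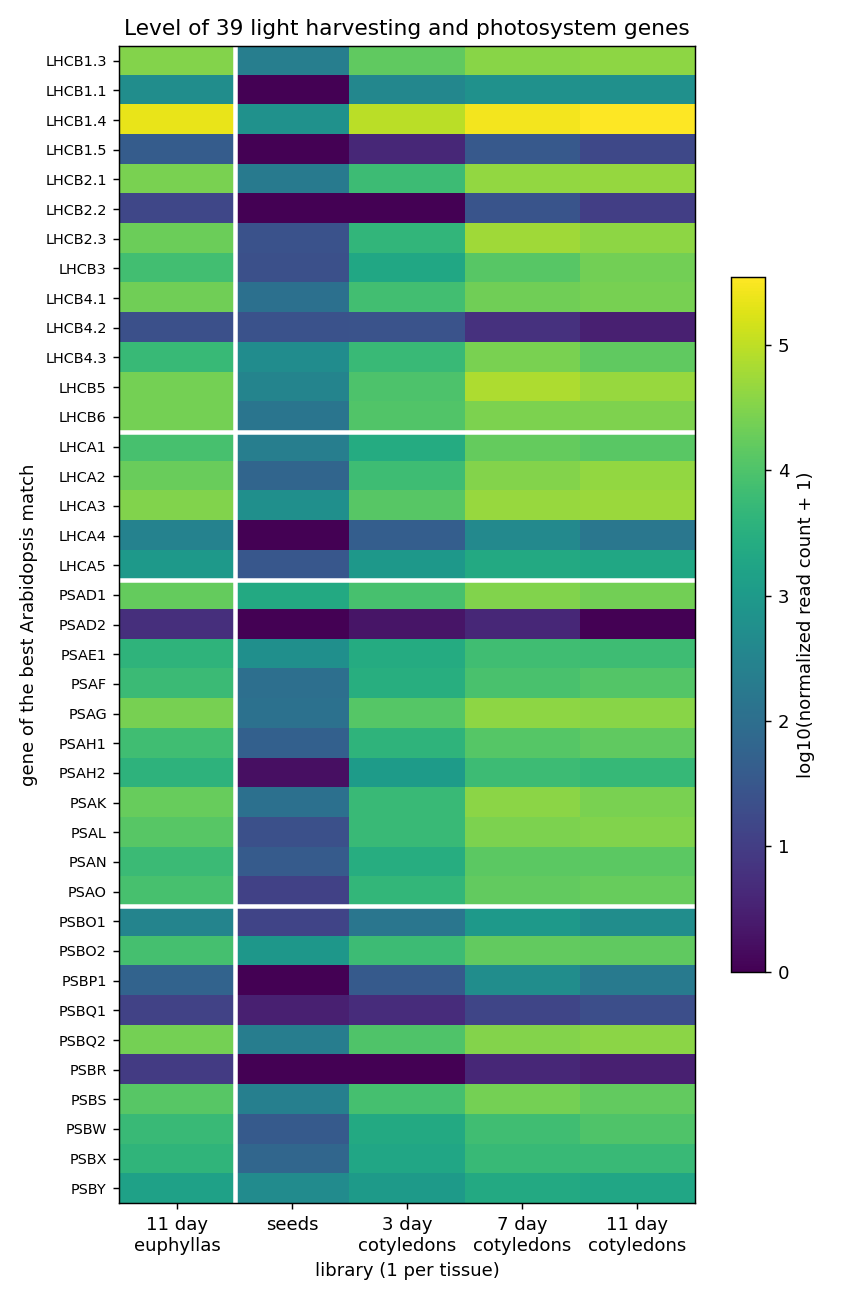
Level of each of the 39 genes (rows, grouped by family with white lines between *LHCB*, *LHCA*, *PSA* and *PSB*) in each library (columns), as log10 of the normalized read count plus 1 (colour). No gene has its highest level in seeds, 18 have it in 7 day and 17 in 11 day cotyledons, and the dark rows are genes with few reads in every library, such as *PSAD2*, *PSBR* and *LHCB4.2*.

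The first comparison sets 3 day cotyledons against seeds, which differ in organ as well as in age. Of the 39 genes 33 were called higher in 3 day cotyledons and none lower, where 22.1% of 16455 unigenes were called higher and 22.5% lower. *LHCB4.2* was not called, at 1.06-fold (0.605 to 1.82), and 5 genes had too few reads to be tried (*LHCB1.5*, *LHCB2.2*, *PSAD2*, *PSBQ1* and *PSBR*). A gene with no read in seeds could be tried only through its reads in cotyledons, which holds for *LHCB1.1*, *LHCA4* and *PSBP1*. The median log2 ratio of the 34 genes was 5.52, and 5.30 with those 3 at their bounds, beside -0.10 over all unigenes.

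The folds over seeds spread widely within each family. *PSAH2* was 1519-fold higher in 3 day cotyledons (272 to 60066), an interval that wide because seeds gave 1 read. *PSAO* was 447-fold higher (271 to 800), *PSAL* 274-fold (192 to 406), *LHCB2.3* 191-fold (136 to 277) and *LHCB1.4* 151-fold (141 to 162). The unigene of AT1G08370, the gene next to *PSAO* in *Arabidopsis*, was 6.23-fold higher, on 1118 reads in seeds and 4848 in 3 day cotyledons. Whether it holds reads of *PSAO* was not tested. *LHCB1.1*, with no read in seeds, was 170-fold higher against a count set at 3 reads (interval from 137). At the other end stood *PSBY* at 2.25-fold (2.04 to 2.49), *PSAD1* at 3.68-fold (3.53 to 3.83), *PSAE1* at 4.47-fold (4.13 to 4.84) and *PSBO2* at 7.27-fold (6.83 to 7.74). The unigenes of these last 4 are all longer than their matched genes, *PSAD1* by 5.70 times and *PSBY* by 3.74 times. Those of *PSAH2*, *PSAO*, *PSAL* and *LHCB1.4* (5.13 times) are longer too, though not those of *LHCB2.3* and *LHCB1.1*. The median log2 ratio over seeds was 5.53 for longer unigenes and 5.52 for the others. Whether other sequence in the unigenes of these last 4 holds the seed reads was not tested. By family the median log2 ratio was 6.04 for 11 *LHCB*, 4.82 for 5 *LHCA*, 6.24 for 10 *PSA* and 4.94 for 8 *PSB* genes, with each family spanning more than these medians differ.

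Between 3 and 7 days the set moved further in the same direction. Of 36 genes with enough reads 34 were called higher in 7 than in 3 day cotyledons and 1 lower, where 23.3% of 16307 unigenes were called higher and 15.4% lower. The median log2 ratio was 1.82, beside 0.04 over all unigenes. The largest folds were those of *PSBP1*, 14.4-fold (10.2 to 20.9), *LHCB2.3*, 12.7-fold (12.3 to 13.1), and *LHCB1.5*, 11.0-fold (3.45 to 56.2) on 32 and 3 reads. *LHCA4* at 8.83-fold and *LHCB2.2* at 8.61-fold, against a count set at 3 reads (interval from 6.50), followed. Next came *LHCB2.1* at 7.31-fold, *LHCB5* at 7.26-fold, *LHCA1* at 6.62-fold, *PSBO1* at 6.47-fold and *PSAK* at 6.43-fold. The other genes called lay between 2.21-fold (*PSBY*) and 6.13-fold (*LHCB3*). *LHCB1.1* was at 1.72-fold (1.51 to 1.97) and was not called. The gene called lower was *LHCB4.2*, at 0.207-fold (0.0618 to 0.549) on 5 reads in 7 day and 25 in 3 day cotyledons.

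From 7 to 11 days few genes of the set were called. None of 36 genes was called higher in 11 day cotyledons and 4 were called lower, where 19.4% of 16396 unigenes were called higher and 18.4% lower. The median log2 ratio was -0.06, beside -0.01 over all unigenes. Those called lower were *LHCB2.2*, at 0.367-fold (0.151 to 0.814), *PSBP1*, at 0.379-fold (0.317 to 0.450), *LHCA4*, at 0.404-fold (0.332 to 0.490), and *LHCB1.5*, at 0.447-fold (0.220 to 0.861). All 4 are among the genes with fewer than 1000 reads over the 5 libraries. Of the genes with more than 1000 reads in both the 7 and the 11 day library, *LHCB4.3* at 0.577-fold and *LHCB5* at 0.681-fold stood lowest and *LHCB3* at 1.82-fold and *PSBW* at 1.48-fold highest, all within the 2-fold limit.

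The last comparison, of euphyllas with cotyledons of the same 11 day sprouts, sets the young leaf against the cotyledon. Of 37 genes 2 were called higher in euphyllas and 10 lower, where 21.0% of 16291 unigenes were called higher and 26.3% lower. Lower calls were thus about as frequent in the set as over all unigenes, and higher calls were less frequent. The median log2 ratio was -0.72, beside -0.10 over all unigenes. Lower were *PSBP1*, at 0.298-fold (0.213 to 0.409), *LHCB3*, at 0.329-fold (0.319 to 0.338), *LHCB4.3*, at 0.358-fold (0.346 to 0.370), *PSAL*, at 0.405-fold (0.396 to 0.414), and *PSAN*, at 0.422-fold (0.409 to 0.436), with *LHCA2*, *PSAH1*, *PSAO*, *LHCA5* and *LHCB2.3* between 0.445-fold and 0.497-fold. *LHCB4.1* at 0.863-fold, *LHCB1.3* at 0.817-fold and *LHCB6* at 0.814-fold were closest to the cotyledon level among the genes with more than 1000 reads in both of these libraries. The genes called higher were *LHCB4.2*, at 10.2-fold (2.47 to 90.7) on 19 reads in euphyllas and 2 in 11 day cotyledons, and *LHCB1.5*, at 2.69-fold (1.41 to 5.42) on 35 and 14 reads.

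This split rests on the scaling. With ratios scaled by the total reads of each library, 3 genes were called higher in euphyllas and 2 lower, while 32.3% of all unigenes were called higher and 18.2% lower, because the scaling moved the median of all unigenes by 0.49 on the log2 scale. For the steps over seeds, 3 to 7 days and 7 to 11 days it moved that median by -0.23, -0.44 and -0.03. A scaling factor shifts all unigenes alike, so the distance of the median log2 ratio of the set from that of all unigenes is nearly fixed whatever the scaling. As normalized it was -0.62 for euphyllas, 5.63 for the step over seeds, 1.78 for 3 to 7 days and -0.06 for 7 to 11 days.

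**Figure D3:**
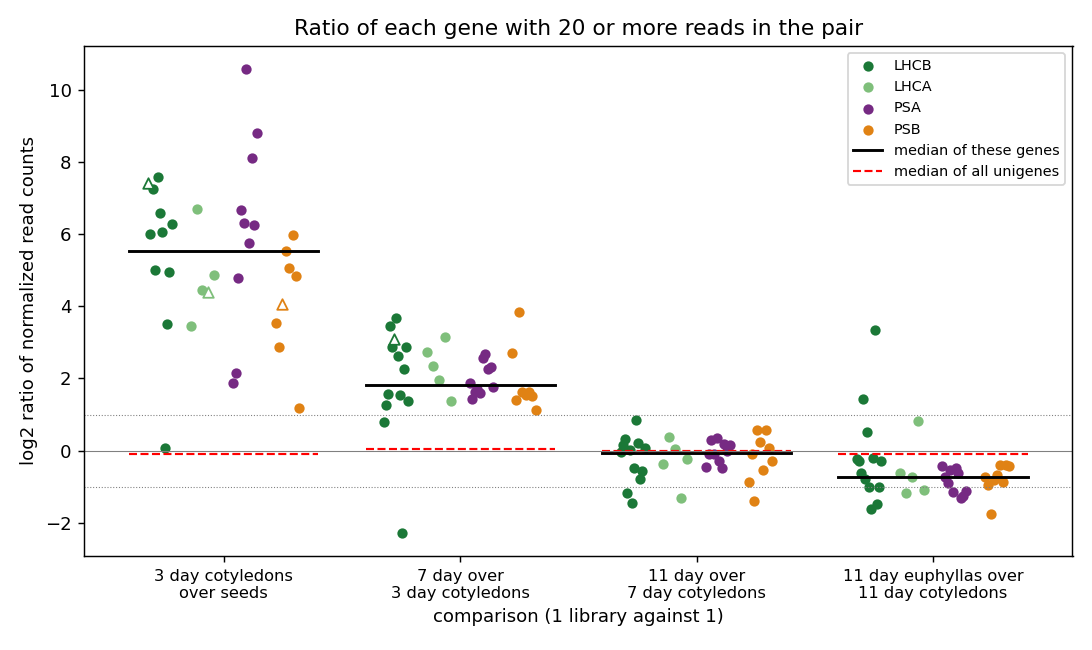
Log2 ratio of normalized read counts (y axis) of each gene with 20 or more reads in the pair, in the 4 comparisons (x axis), coloured by family; open triangles are lower bounds against 0 reads, dotted lines mark the 2-fold limit, and black and dashed red lines are the medians of the set and of all unigenes, taken with a pseudocount of 1. The black line lies at 5.52, 1.82, -0.06 and -0.72 from left to right and the red line at -0.10, 0.04, -0.01 and -0.10.

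Most genes had their highest level in the older cotyledons. Of the 39 genes 3 had it in euphyllas (*LHCB1.5*, *PSAD2* and *PSBR*, all of low reads), none in seeds, 1 in 3 day (*LHCB4.2*), 18 in 7 day and 17 in 11 day cotyledons. Over 18104 unigenes with at least 20 reads the shares were 13.2% in euphyllas, 29.3% in seeds, and 15.0%, 16.0% and 26.6% in 3, 7 and 11 day cotyledons. That limit was not set for the 39 genes, and *PSAD2* and *PSBR*, with 8 and 12 reads, fall under it. The antenna was divided between the older cotyledon libraries: *LHCB1.3*, *LHCB1.4*, *LHCB2.1*, *LHCB3*, *LHCB4.1* and *LHCB6* were highest at 11 days, and *LHCB2.3*, *LHCB4.3* and *LHCB5* at 7 days, with *LHCB2.1* differing by 1.01-fold (0.999 to 1.03) between them.

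Per kb of unigene, the order at 11 days in cotyledons was led by *LHCB1.4*, at 67300 normalized counts per kb, then *LHCB2.3* at 52831, *LHCB3* at 30173, *LHCA2* at 29682, *PSBQ2* at 19374 and *PSAL* at 18422. At 7 days *LHCB2.3* led, at 74200 per kb, before *LHCB1.4* at 53757. The order in seeds was a different one, with *PSAD1* at 489.7 per kb, *PSBO2* at 433, *PSAE1* at 368 and *LHCB4.3* at 206 ahead of *LHCB1.4* at 120.5. Other sequence in a unigene, with or without reads of its own, would change such a value, so this order depends on the lengths described next.

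Unigenes of this set were often longer than the gene they matched, introns of the *Arabidopsis* gene included. This held for 23 of 39 genes (59.0%) and for 35.1% of 18151 unigenes matched to a nuclear gene, and 11 of the 39 (28.2%) exceeded the gene by more than 2 times, against 3.32% of all. The unigene of *PSAD1* had 4754 bp for a gene of 834 bp, that of *LHCB1.4* 5163 bp for 1007 bp and that of *PSAG* 3433 bp for 779 bp. At the other end, 7 unigenes were under 500 bp (*LHCB1.1*, *LHCB1.5*, *LHCB2.2*, *LHCA4*, *PSAD2*, *PSBQ1* and *PSBR*). They had between 8 and 1960 reads over the 5 libraries, with a median of 49, against a median of 47542.5 for the 32 longer ones.

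**Figure D4:**
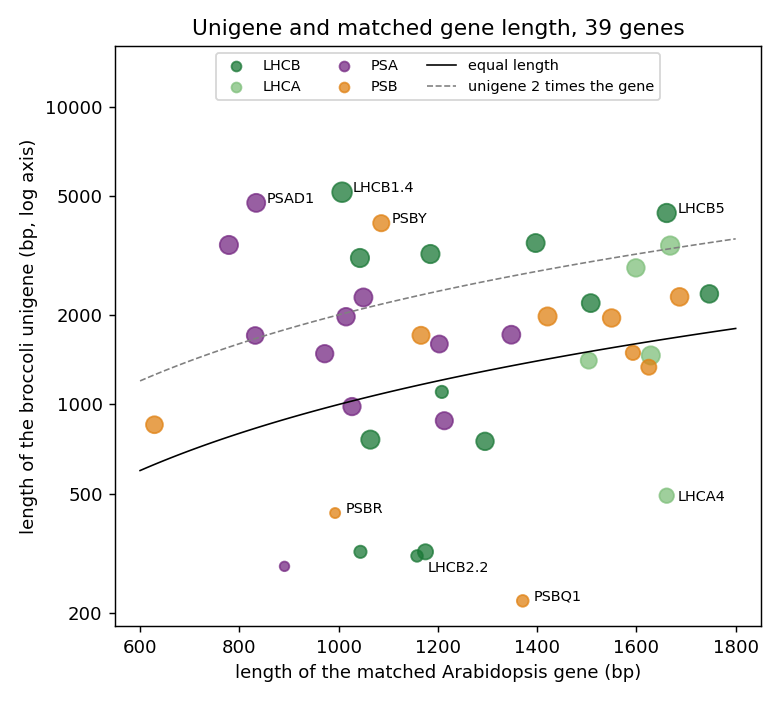
Length of each unigene (y axis, bp, log axis) against the length of its matched *Arabidopsis* gene (x axis, bp), coloured by family, with larger points for more reads (log scale); the solid line is equal length and the dashed line 2 times the gene. Of the 39 points 23 lie above the solid line and 11 above the dashed one, and the 7 unigenes under 500 bp are small points.

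The main steps were seen in both kinds of unigene. Of the 23 longer than the gene, all 23 were called higher at 3 days than in seeds and again in 7 than in 3 day cotyledons. Of the 16 that were no longer than the gene, 10 of 11 tried were called higher in the first step and 11 of 13 in the second. In euphyllas, against 11 day cotyledons, the 23 longer ones had none called higher and 4 lower. Of the others 14 were tried, with 2 higher and 6 lower. Over all unigenes tried, 22.1% were called higher in the first step and 23.3% in the second. In euphyllas 21.0% were called higher and 26.3% lower. Without the longer unigenes, the share of mapped reads on the set was 0.775% in euphyllas, and 0.00476% in seeds, 0.256%, 1.21% and 1.22% in 3, 7 and 11 day cotyledons.

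The name of a unigene gives the locus of the assembly it came from. A single assembly locus with 4489 transcripts and 115 unigenes held 7 of the genes, *LHCB1.1*, *LHCB1.3*, *LHCB1.4*, *LHCB1.5*, *LHCB2.2*, *LHCB2.3* and *LHCB3*. Another held *PSAD1* with *PSAD2*, and one more held *PSAG* with *PSBW*, which are no relatives. Of the 39 genes 12 were the only unigene of their assembly locus. The sequences of the unigenes are not used here, so whether transcripts of different genes were joined in one unigene was not tested.

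Genes beside these in the *Arabidopsis* genome were then looked at, by a rule chosen after values were seen: a gap of at most 500 bp between the annotated genes. There were 30 such neighbouring unigenes outside the set, next to 23 of the genes. Of 28 with enough reads in both steps, 8 (28.6%) were called higher at 3 days than in seeds and again in 7 than in 3 day cotyledons, against 5.68% of 15568 unigenes. They lie next to *LHCB4.2*, *LHCA4*, *PSAN*, *PSAO*, *PSBP1* (on either side), *PSBR* and *PSBX*. Of the 8, 5 share the assembly locus of the photosystem gene and 6 are longer than their own matched gene.

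The contrast was widest where the photosystem gene had few reads. *PSBR* overlaps AT1G79050, annotated as a recA DNA recombination protein, by 50 bp in *Arabidopsis*. The unigene of AT1G79050 (5801 bp for a gene of 3220 bp, in the assembly locus of *PSBR*) stood at 36923 in euphyllas, and at 754, 17035, 82734 and 64142 in seeds and in 3, 7 and 11 day cotyledons. *LHCA4* overlaps AT3G47460, annotated as a chromosome structural maintenance (SMC) protein, by 23 bp. The unigene of AT3G47460, in the assembly locus of *LHCA4*, stood at 44021 in euphyllas, and at 1562, 14901, 73137 and 72381 in seeds and in 3, 7 and 11 day cotyledons.

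Next to *PSBP1*, the unigene of AT1G06670, annotated as a nuclear helicase and 14357 bp long for a gene of 7179 bp, stood at 51781 in euphyllas, and at 5635, 28584, 80918 and 80637 in seeds and in 3, 7 and 11 day cotyledons. Next to *LHCB4.2*, the unigene of AT3G08943, 6759 bp long for a gene of 3744 bp, stood at 11480 in euphyllas, and at 1276, 4688, 21144 and 19222 in seeds and in 3, 7 and 11 day cotyledons. In all 4 of these neighbouring unigenes seeds were lowest and 7 day cotyledons highest. Whether they hold reads of the photosystem gene beside them was not tested. The low levels of *PSBR*, *LHCA4*, *PSBP1* and *LHCB4.2*, and the directions drawn from them above, are values of those unigenes. The same holds for the folds of *PSAO* and *PSAN* over seeds. In seeds *PSAO* had 15 reads and the unigene of AT1G08370 beside it, in its assembly locus, had 1118. *PSAN* had 53 reads in seeds and the unigene of AT5G64030, also in its assembly locus, had 2071. How reads were divided between them was not tested.

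**Figure D5:**
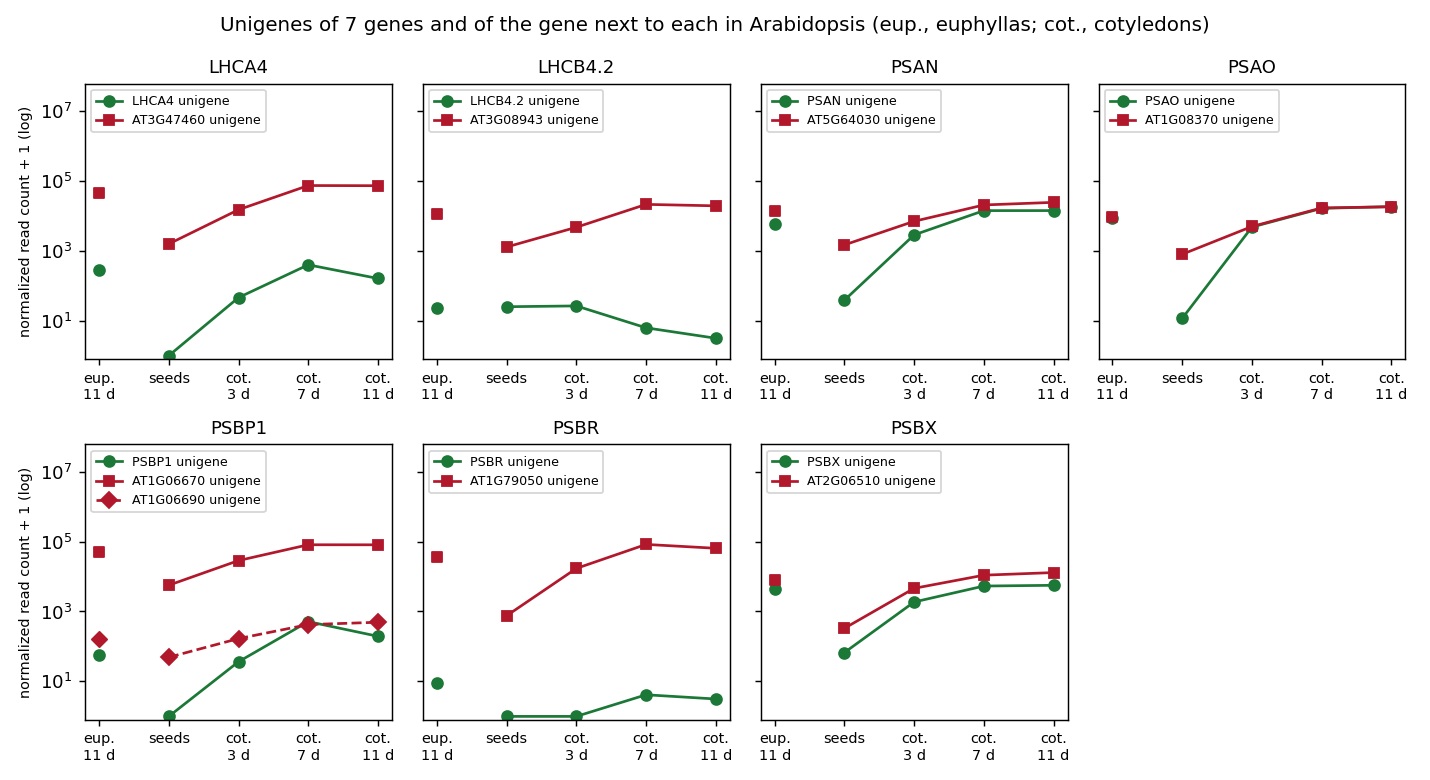
Normalized read count plus 1 (y axis, log) of 7 photosystem unigenes (green) and of the unigene of the gene next to each in *Arabidopsis* (red), by library (x axis); lines join seeds and the cotyledon stages and 1 point is 1 library. For *LHCA4*, *LHCB4.2*, *PSBP1* and *PSBR* a neighbouring unigene lies far above the photosystem unigene in every library, and for *PSAN*, *PSAO* and *PSBX* they lie closer together outside seeds.

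Genes that work with the photosystems were read in the same way. In the list of electron carriers and ATP synthase, 10 of 11 loci had a unigene and 8 had enough reads. Of these 7 were called higher at 3 days than in seeds, and 7 higher and 1 lower in 7 than in 3 day cotyledons. Over all unigenes tried, 22.1% were called higher in the first of these steps, and 23.3% higher and 15.4% lower in the second. *PETC*, the Rieske protein of the cytochrome b6f complex, stood at 10177 in euphyllas, and at 616, 7350, 26032 and 30889 in seeds and in 3, 7 and 11 day cotyledons. *PETE2*, a plastocyanin, stood at 6093 in euphyllas, and at 15.6, 4321, 15545 and 8847 in seeds and in 3, 7 and 11 day cotyledons. The exception was *ATPD*, the delta subunit of ATP synthase, at 6056 in euphyllas, and at 4981, 8122, 3778 and 862 in seeds and in 3, 7 and 11 day cotyledons. It was 7.03-fold higher in euphyllas than in 11 day cotyledons. The 2 genes called lower there were *PETC*, at 0.329-fold, and *LFNR2*, a ferredoxin NADP reductase, at 0.430-fold. The other 5 were not called, and the median fold of the 8 was 0.701. In this comparison 21.0% of all unigenes tried were called higher and 26.3% lower, so the lower calls of the list are near the share over all unigenes. Among those not called, *FD2* and *ATPC1* stood at 9024 and 9496 in euphyllas, and at 11235 and 13292 in 11 day cotyledons.

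Factors that assemble or import the proteins showed the first step and mostly not the second. Of 11 with a unigene 10 were called higher at 3 days than in seeds, and only *PSB27*, a repair factor of photosystem II, was called higher in 7 than in 3 day cotyledons. The shares called higher over all unigenes tried were 22.1% in the first step and 23.3% in the second. *ALB3*, the insertase that places antenna proteins in the membrane, had 2906 in euphyllas, and 817, 3579, 5152 and 4475 in seeds and in 3, 7 and 11 day cotyledons. *CPSRP54*, which carries antenna proteins through the stroma, peaked early, with 3457 in euphyllas, and 852, 4600, 3617 and 1287 in seeds and in 3, 7 and 11 day cotyledons, and was 2.69-fold higher in euphyllas than in 11 day cotyledons. The median log2 ratios of the list were 2.14 in the first step and 0.46 in the second.

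Of 11 genes of regulation and photoprotection, 8 were called higher at 3 days than in seeds, and 7 higher and 1 lower in 7 than in 3 day cotyledons. In euphyllas 1 was called higher and 6 lower than in 11 day cotyledons. Over all unigenes tried, 22.1% were called higher at 3 days than in seeds. The shares were 23.3% higher and 15.4% lower in 7 than in 3 day cotyledons, and 21.0% higher and 26.3% lower in euphyllas. *ABA1*, the zeaxanthin epoxidase of the xanthophyll cycle, stood at 2497 in euphyllas, and at 1027, 1760, 15943 and 11125 in seeds and in 3, 7 and 11 day cotyledons. The early light induced genes, which act while pigment proteins are being built, were both called lower in 11 than in 7 day cotyledons. *ELIP2* stood at 33.5 in euphyllas, and at 16.3, 1186, 191 and 15.0 in seeds and in 3, 7 and 11 day cotyledons. *ELIP1* stood at 3.47 in euphyllas, and at 353, 346, 582 and 19.3 in seeds and in 3, 7 and 11 day cotyledons.

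A list of transcription regulators had its own calls. It is not limited to regulators of the nuclear genes above, since *SIG1*, *SIG2*, *SIG5* and *SIG6* in it are plastid sigma factors. Of 15, 7 were called higher at 3 days than in seeds and none lower, 7 higher and 4 lower in 7 than in 3 day cotyledons, and 1 higher and 11 lower in 11 than in 7 day cotyledons. Over all unigenes tried, the shares in these steps were 22.1% higher and 22.5% lower, 23.3% and 15.4%, and 19.4% and 18.4%. *SIG2* was the regulator called higher in the last of these steps, at 6484 in 11 day and 3233 in 7 day cotyledons. *GLK1*, an activator of photosystem genes, stood at 525 in euphyllas, and at 34.7, 152, 842 and 573 in seeds and in 3, 7 and 11 day cotyledons. Its relative *GLK2* stood at 458 in euphyllas, and at 62.3, 180, 1080 and 78.3 in seeds and in 3, 7 and 11 day cotyledons. *GLK2* was 5.85-fold higher in euphyllas than in 11 day cotyledons and *GLK1* was at 0.916-fold. *HY5*, a light response factor, stood at 74.0 in euphyllas, and at 450, 410, 114 and 19.3 in seeds and in 3, 7 and 11 day cotyledons. *SIG5*, a plastid sigma factor, was 18.1-fold higher in 7 than in 3 day cotyledons, and *PIF5*, a phytochrome interacting factor, 11.0-fold higher. Of the clock genes, *LHY* was 378-fold higher in 7 than in 3 day cotyledons, and the part of the hour in these values was not tested.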

How the data were processed

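Libraries were made from RNA captured with poly-T beads and sequenced as paired ends on an Illumina MiSeq. The authors trimmed the reads, assembled all libraries together with Velvet and Oases, named unigenes by their best *Arabidopsis* match, mapped each library with Bowtie and scaled it with DESeq with versions not given in the sources used here. Values used were the raw read counts per unigene that the authors deposited in 10 tables, 1 for each pair of libraries. The counts of a library were identical in all its tables. The 20 columns of RPKM and 20 of scaled means were not used, nor were the fold changes, p-values and adjusted p-values of the authors' own comparisons. Total reads per library lay between 6802615 and 10312625.

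DESeq size factors were recomputed from the counts in Python 3.11.15 with numpy 2.4.6, pandas 2.3.3 and scipy 1.17.1. Every unigene was passed through the call rule given above (fold of at least 2, exact 95% interval excluding 1, at least 20 reads, floor of 3 reads for a count of 0), and medians of log2 ratios used a pseudocount of 1. The rule was tested on simulated data. Alternatives were scaling by total reads, with or without the set, or by TMM factors (edgeR 4.0.16), the minimum of reads, the fold limit, halved counts, the pseudocount and the unigene length. *Arabidopsis* positions are those of the deposited annotation, with the build not stated there. Named were the 4 genes with most reads of each family, the extremes of each comparison, genes against the others, and those under 20 reads. From the other lists the plan was to name the 3 called genes with most reads in each comparison and any against its list. This rule was followed only in part, so some genes that met it have no values here. The remaining genes, and those of other lists outside this rule, were named after their values were seen. The genes and lists were chosen with earlier results of these data known.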

Additional observations from a re-analysis of the deposited data

How the results depend on the processing

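No paired analysis was possible because each tissue has 1 library, and leaving out a replicate was not possible for the same reason. No called gene changed direction under any alternative tried. Scaling by total reads gave a median log2 ratio of 1.38 for 7 over 3 day cotyledons and -0.23 for euphyllas over 11 day cotyledons, with 2 genes lower in euphyllas. Total reads without the set gave 1.47, -0.25 and 3 genes. A minimum of 100 reads left 0 genes lower in 7 than in 3 day cotyledons, 2 lower in 11 than in 7 day cotyledons and 0 higher in euphyllas, and halved counts gave 0, 2 and 1. A fold limit of 4 left 16 genes higher in 7 than in 3 day cotyledons, 0 lower in 11 than in 7 day cotyledons, and 1 higher and 0 lower in euphyllas. With only unigenes no longer than the matched gene, which leaves 16, there were 10 genes higher over seeds and 11 higher in 7 than in 3 day cotyledons (median log2 ratio 2.62), 6 lower in euphyllas, and shares of reads of 0.775% in euphyllas, and 0.00476%, 0.256%, 1.21% and 1.22% in seeds and in 3, 7 and 11 day cotyledons. With only unigenes of at least 500 bp, an alternative chosen after seeing the data, 1 gene was lower in 11 than in 7 day cotyledons and 1 higher in euphyllas. Counts of 0 to 3 reads, as in seeds, set how small a level could be seen, and no interval here covers variation between plants.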

Other observations

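Genes of the photosystem core that lie in the plastid genome were outside the comparisons. RNA was captured by its poly-A tail, which plastid transcripts mostly lack. Of 9 such loci 5 had a unigene, and these summed to 466 normalized counts in euphyllas, and to 518, 173, 292 and 1041 in seeds and in 3, 7 and 11 day cotyledons. *PSBB*, an inner antenna protein of photosystem II, stood at 92.4 in euphyllas, and at 41.0, 9.15, 82.98 and 228 in seeds and in 3, 7 and 11 day cotyledons. *PSAB*, a reaction centre protein of photosystem I, stood at 200 in euphyllas, and at 332, 81.4, 63.0 and 167 in seeds and in 3, 7 and 11 day cotyledons. In 3 day cotyledons 3 of the 5 were called lower than in seeds and none higher, and in 11 day cotyledons 4 of 4 were called higher than at 7 days. Over all unigenes tried, 22.5% were called lower and 22.1% higher in the first of these steps, and 19.4% higher in the second. The nuclear genes described above had 33 of the 34 with enough reads called higher in the first of these steps and none of 36 in the second.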
